A study of Mus musculus with 9 samples.

Results

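The genes described are 34 genes of glycolysis and of the response to low oxygen. They are the enzymes from hexokinase to lactate dehydrogenase, the glucose and lactate transporters, 3 regulators of glycolytic flux, *Hif1a*, and targets of hypoxia-inducible factor (HIF). They were chosen by symbol in the deposited gene table, where 35 of 55416 genes matched, because *Aldoa* has 2 identifiers. Of these, 31 (30 symbols) were among the 13679 genes that passed the filter on low counts and were tested, while *Adm*, *Aldoc*, *Car9* and *Slc16a3* did not pass. The libraries came from MC3T3-E1, a wild-type pre-osteoblastic line from mouse calvaria, so all libraries derive from 1 cell line. All cells were differentiated in αMEM with serum, ascorbic acid, dexamethasone and 10 mM β-glycerophosphate (BGP). The labels describe this medium up to day 27, whereas the study's methods leave BGP out during the last week. At day 27, cells received 4 mM BGP (an organic phosphate), 4 mM NaHPO4 (Na2HPO4/NaH2PO4, an inorganic phosphate) or neither (Control) for 16 h. According to the study, αMEM itself supplied sodium phosphate in every condition, so Control was not free of phosphate. The study also takes its alkaline phosphatase activity to imply that BGP was turned into inorganic phosphate here. There were 3 poly(A) RNA libraries per condition and 9 in all. BGP carries its phosphate as an ester of glycerol, and the study asked whether bone cells answer both phosphate sources in the same way.

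Glycolysis converts glucose to pyruvate in the cytosol. The upper steps spend ATP to make triose phosphates, and the lower steps, from *Gapdh* to *Pkm*, return ATP and NADH. *Gapdh* takes up inorganic phosphate as a substrate. Lactate dehydrogenase regenerates NAD+ by reducing pyruvate to lactate, which leaves the cell through monocarboxylate transporters. When oxygen is low, prolyl hydroxylases (*Egln1*, *Egln3*) stop marking HIF-1α for destruction, and HIF raises transcription of most of these enzymes together with *Vegfa*, *Bnip3* and others through a short core motif in their promoters. Osteoblasts are known for a high rate of glycolysis even with oxygen present.

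The depth was 21390839 to 28234404 counts per library, and the NaHPO4 libraries, at 25203779 to 28234404, overlapped only the deepest Control library. All 14 osteoblast and osteocyte markers passed the filter, among them *Col1a1* at 43285 ± 2120.0 CPM (counts scaled to library size by TMM, SD, n = 3) and *Dmp1* at 76 ± 10.4 CPM in Control. The osteocyte genes *Sost* and *Fgf23* were low in Control, at 1.39 and 1.2 CPM. The summed level of the osteoblast and osteocyte markers was 111458 to 118755 CPM in Control, 112428 to 117882 CPM with BGP and 104550 to 110698 CPM with NaHPO4, nearly all of it *Col1a1*, *Col1a2* and *Ibsp*. Single markers moved both ways: 2 of 14 were higher with NaHPO4, *Spp1* (3.91-fold) and *Dmp1* (4.57-fold), and 5 lower (*Col1a1*, *Col1a2*, *Alpl* and *Bglap*, with log2FCs of -0.22 to -0.15, and *Sost*, at -1.69). With BGP 4 were higher, *Dmp1* (7.24-fold), *Fgf23*, *Spp1* and *Phex*, and 0 lower. Of the other cell types, 4 of 6 chondrocyte markers passed the filter (summed 261 to 324 CPM in Control, 351 to 457 with BGP and 196 to 277 with NaHPO4, mostly *Col2a1*), and *Matn1* was at 0. *Col2a1* rose with BGP (log2FC 0.50, FDR 7.5e-04) and fell with NaHPO4 (-0.45, FDR 0.0014), *Comp* fell with both (-0.44 and -0.49, FDR 0.013 and 0.0014), and *Sox9* passed in neither. For macrophages and osteoclasts 3 of 6 passed (290.3 to 297, 276 to 287 and 250.3 to 263 CPM, nearly all *Ctsk*). *Ctsk* fell with NaHPO4 (log2FC -0.20, FDR 8.4e-05). *Csf1r* and *Cd68* were at 0.92 and 0.91 CPM in Control, and *Ptprc*, *Adgre1* and *Acp5* did not pass the filter. For adipocytes 1 of 7 passed, for skeletal muscle 1 of 6 with *Myod1* and *Myog* at 0, and for endothelium 0 of 4. The part of depth and of these markers in the changes below was not tested. The sources do not say whether libraries came from separate cultures, so p-values cover the spread between these libraries. In bulk RNA, fewer cells with a transcript and less transcript per cell cannot be told apart.

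NaHPO4 raised a run of enzymes between *Pfkl* and *Pkm* by 13.6% to 33.5%, whereas with BGP none of them passed and the genes that rose were a glucose transporter, a lactate transporter and *Ldha*. Against Control, NaHPO4 raised 10 members (*Pfkl*, *Aldoa*, *Tpi1*, *Gapdh*, *Pgk1*, *Pgam1*, *Eno1*, *Pkm*, *Ldha* and *Bnip3l*) and lowered *Pfkfb4*. BGP raised 3 members (*Slc2a1*, *Ldha* and *Slc16a1*). Summed over the 16 rows from hexokinase to pyruvate kinase, expression was 1993, 2068 and 2173 CPM in the Control libraries, 2055, 2073 and 2146 CPM with BGP and 2304, 2371 and 2537 CPM with NaHPO4. Thus every NaHPO4 library lay above every other library, with a mean 15.7% above Control, while BGP and Control overlapped and their means differed by 0.657%. Most of this sum was *Pkm*, *Gapdh*, *Aldoa* and *Tpi1*, at 467, 432, 280 and 251 CPM in Control. Of its 15 tested rows, 8 were higher with NaHPO4 and the others did not pass. *Ldha* was the one member that rose with both phosphates.

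A gene was called higher or lower at a Benjamini-Hochberg adjusted p (FDR) below 0.05 in edgeR's quasi-likelihood test, which ran over all 13679 genes. With NaHPO4 versus Control, 10 of 31 members (32.3%) were higher, beside 3.43% of all genes tested, and 1 (3.23%) was lower, beside 3.95%. With BGP versus Control, 3 of 31 (9.68%) were higher, beside 1.86% of all genes. For lower the count was 0 in edgeR, DESeq2 and limma, beside 0.665% of all genes in edgeR. At an unadjusted p below 0.05 the count of lower members was also 0, where 13.4% of all genes passed in either direction. With BGP versus NaHPO4, 10 members (32.3%) were lower, beside 2.05%, and 4 (12.9%) were higher, beside 3.33%. This last comparison uses the same NaHPO4 libraries as the first, and both comparisons with Control share the Control libraries. The members are mostly abundant genes, so the shares were also taken among genes with a mean of at least 20 CPM (24 members of 7453 genes). There, NaHPO4 raised 41.7% of members beside 5.13% of genes, and lowered 4.17% beside 6.08%, while BGP raised 8.33% beside 2.58% and lowered 0 members beside 0.993%. BGP versus NaHPO4 gave 41.7% lower beside 2.63% and 12.5% higher beside 5.3%. The median log2 fold change (log2FC) over the 31 members was 0.088 with NaHPO4 and 0.013 with BGP, against 0.0001 and -0.0043 over all genes tested.

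All changes were small on the study's own scale. Its differentially expressed genes (DEGs) need, beside an FDR below 0.05, a log2FC of more than 0.5 in either direction, and 0 members met both in any of the 3 comparisons in edgeR, DESeq2 or limma (background 0.556% for BGP, 0.716% for NaHPO4 and 0.585% for BGP versus NaHPO4). At an unadjusted p below 0.05 in edgeR, 6, 16 and 20 members passed in these comparisons, beside 13.4%, 19.9% and 16.9% of all genes. When Control replicate 3 was left out, *Ankrd37* became a DEG with NaHPO4 (log2FC 0.92, FDR 0.0044). The libraries of BGP and NaHPO4 did not overlap for 20 members, 16 lower and 4 higher with BGP, beside 10.4% and 10.8% of all genes. Against Control, 11 members lay wholly higher and 3 wholly lower with NaHPO4 (11.6% and 11.6% of all genes), and 7 wholly higher and 0 wholly lower with BGP (9.74% and 8.79%).

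**Figure D1:**
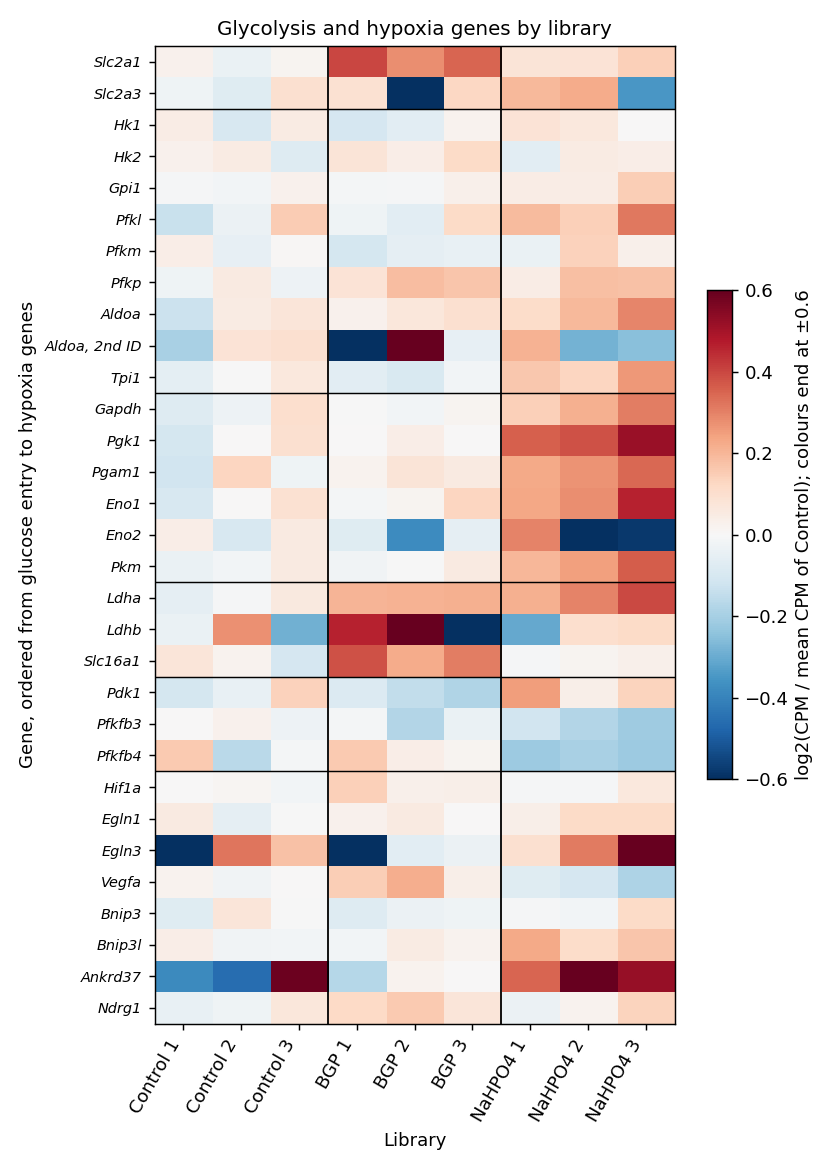
Expression of the 31 tested rows (vertical axis, from glucose entry at the top to hypoxia genes at the bottom, lines between roles) in the 9 libraries (horizontal axis), as log2 of CPM over the mean CPM of Control. The block from *Gapdh* to *Pkm* is red in all 3 NaHPO4 libraries except for *Eno2*, *Slc2a1* and *Slc16a1* are red in the BGP libraries, and *Ldha* is red in both.

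Per length, *Tpi1*, *Ldha*, *Gapdh*, *Aldoa* and *Pkm* were the most abundant members. In Control, *Tpi1* reached 90.5 ± 3.82 CPM per kb of its annotated exons merged (SD, n = 3) and *Ldha* 89.5 ± 3.47, which did not differ beyond their spread. *Gapdh* (60.3 ± 3.93), *Aldoa* (52 ± 3.87) and *Pkm* (34.8 ± 1.2) followed, each step larger than both SDs. *Vegfa*, at 25.6 ± 0.375 CPM per kb, was the highest hypoxia gene. *Pgam1* (18.3 ± 1.57) and *Pgk1* (17.9 ± 1.23) lay below it and did not differ beyond their spread. Of short windows in annotated transcripts, those also found in transcripts of another gene made up 51.8% for *Pgk1* and 29.3% for *Pgam1*. The share was 28.8% for *Aldoa*, 21.2% for *Pkm* and 16.1% for *Gapdh*, beside 4.62% for *Ldha*, 3.26% for *Tpi1* and 0.113% for *Vegfa*. Reads from such windows can be assigned to other genes or to none. Their part in the order of levels and in the shares below was not tested. *Slc2a1* (4.49 ± 0.112) and *Hk2* (2.64 ± 0.123) were more than 10 times below *Aldoa* per length. By the canonical transcript alone, which shortens *Pkm* and *Gapdh* most, the same 5 genes led in another order: *Gapdh* (304 ± 19.8 CPM per kb), *Ldha*, *Pkm*, *Aldoa* and *Tpi1* (156 ± 6.59).

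Some steps rested mainly on 1 gene and others on several. Shares were taken of the summed CPM per kb of merged exons over the genes of a step, members or not. *Hk1* made up 78.4% ± 0.476 of the hexokinase level in Control, *Hk2*, the insulin- and hypoxia-responsive form, 17.4% ± 1.58 and *Hk3*, which is no member, 4.18% ± 1.19. *Ldha* held 99.8% ± 0.0379 of the level of *Ldha*, *Ldhb* and *Ldhc*. Enolase was split between *Eno1* (57.6% ± 2.69) and *Eno3*, the muscle form and no member (40.03% ± 3.06), with 2.16% ± 0.163 from *Eno2*. Phosphofructokinase came from *Pfkm* (39.9% ± 1.81), *Pfkl* (34.6% ± 2.42) and *Pfkp* (25.5% ± 1.33). With NaHPO4 the share of *Eno1* was 62.2% ± 1.53 and that of *Eno3* 35.8% ± 1.44, while with BGP they were 57.4% ± 0.393 and 40.3% ± 0.237. The share of *Pfkm* was 37.7% ± 0.646 with BGP and 37.6% ± 1.73 with NaHPO4, and that of *Pfkp* 27.9% ± 0.853 and 25.6% ± 0.455. By the canonical transcript *Eno1* held 68.8% ± 2.49 and *Eno3* 30.01% ± 2.58 in Control, and *Pfkl* led the phosphofructokinases (36.7% ± 2.49).

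**Figure D2:**
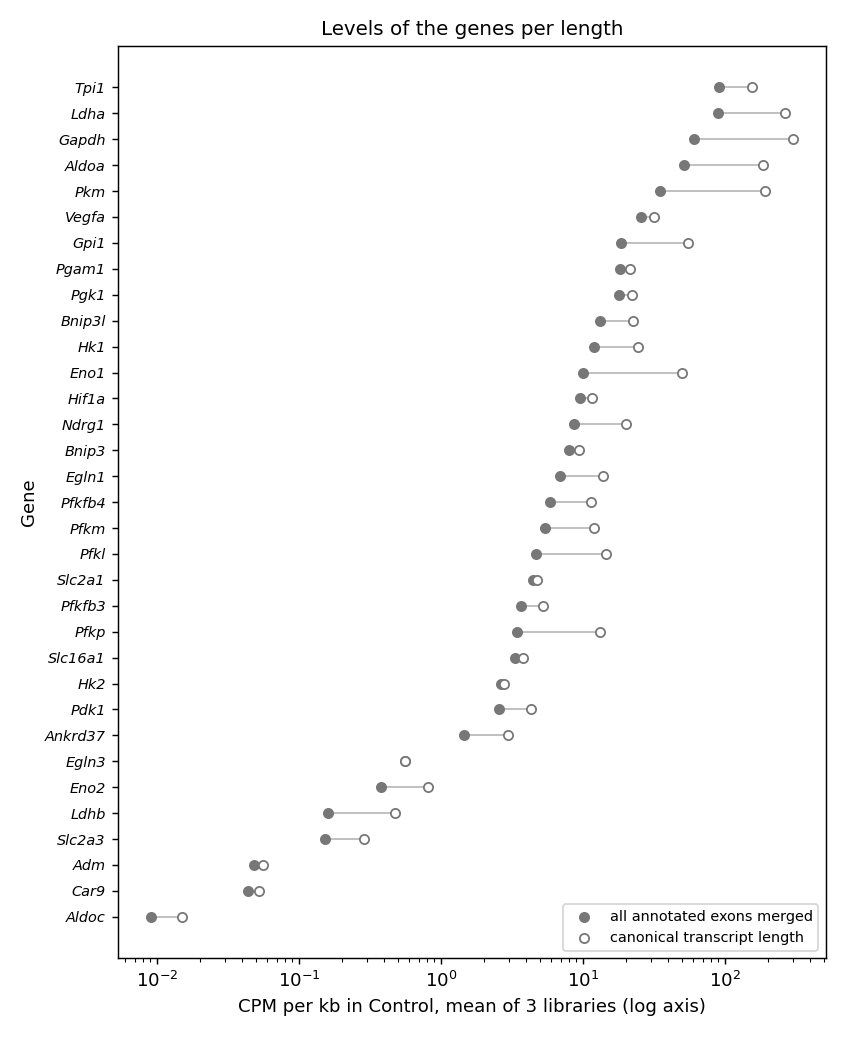
Mean expression in the 3 Control libraries per kb (horizontal, log axis) for each member with counts in Control (vertical), by the length of all annotated exons merged (filled) and of the canonical transcript (open). By merged exons, levels run from 90.5 CPM per kb for *Tpi1* to under 0.1 CPM per kb for *Adm*, *Car9* and *Aldoc*.

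Promoters of the members that passed the test against Control are shown because HIF is known to act on many of these genes. The windows run from 250 bases before to 50 after a RefSeq start (GRCm38.p6). The motif was searched as ACGTG or GCGTG on both strands, and the E-box CACGTG, which holds ACGTG on both strands, gives a match on each. It was present in 28 of 31 members with a window (90.3%) and in 46.7% of 27025 genes. Among tested genes the shares were 24 of 27 members (88.9%) and 67.5% of 10036 genes, and for the E-box 22.2% and 11.8%. Wholly before a start, the motif lay in 28 of 31 members with a window (90.3%) and in 41.5% of 27025 genes. It was also found there in members that did not pass, such as *Bnip3* with 5 matches. Of the 13 members that passed against Control, 12 had a window and 11 held the motif wholly before a start. The window of *Tpi1* did not hold these letters. The 6 genes with at least 2 motifs before their most upstream start follow, 5′ to 3′ on the gene's strand, with the motifs in capitals. A match is a description of the letters and not a measured binding site.
Slc2a1, chr4:119108672-119108725, plus strand: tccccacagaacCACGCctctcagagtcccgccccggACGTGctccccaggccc
Gapdh, chr6:125165801-125165839, minus strand: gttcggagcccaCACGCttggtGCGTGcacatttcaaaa
Pgk1, chrX:106186938-106186985, plus strand: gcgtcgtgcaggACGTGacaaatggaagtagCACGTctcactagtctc
Pgam1, chr19:41911684-41911799, plus strand: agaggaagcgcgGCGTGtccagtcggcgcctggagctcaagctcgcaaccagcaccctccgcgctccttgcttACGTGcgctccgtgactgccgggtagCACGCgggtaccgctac
Ldha, chr7:46845647-46845786, plus strand: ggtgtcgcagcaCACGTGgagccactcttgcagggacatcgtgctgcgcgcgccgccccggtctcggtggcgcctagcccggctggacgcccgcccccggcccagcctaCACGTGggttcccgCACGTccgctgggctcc
Slc16a1, chr3:104638452-104638546, plus strand: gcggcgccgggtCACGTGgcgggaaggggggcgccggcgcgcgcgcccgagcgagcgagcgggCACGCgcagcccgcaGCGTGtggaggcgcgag
The stretch of *Ldha* holds 5 matches, 4 of them in 2 E-boxes, and that of *Slc16a1* holds 4, of which 2 share 1 E-box. *Slc2a1*, *Gapdh* and *Pgk1* hold 2 each and *Pgam1* holds 3.

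Of the 2 glucose transporters, *Slc2a1* rose with BGP. *Slc2a1* (ENSMUSG00000028645), on chromosome 4 at 118965908 to 118996365 (GRCm39, plus strand), encodes the basal glucose transporter GLUT1. It was at 21.4, 20.4 and 21.3 CPM in the Control libraries, 27.8, 25.5 and 26.8 CPM with BGP and 22.2, 22.3 and 23.2 CPM with NaHPO4. All BGP libraries lay above all other libraries, while NaHPO4 lay just above Control. The log2FC was 0.34 ± 0.066 (SE) with BGP, 26.9% higher, at an FDR of 0.0012. With NaHPO4 it was 0.10 ± 0.066 (FDR 0.43), which did not pass. BGP exceeded NaHPO4 by 0.24 ± 0.065 (FDR 0.018), a call lost without BGP replicate 1 (FDR 0.12), BGP replicate 3 (FDR 0.062) or NaHPO4 replicate 2 (FDR 0.073). *Slc2a3*, a high-affinity glucose transporter, was at 0.719 to 1.33 CPM in the 9 libraries and passed in no comparison.

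In the upper steps, NaHPO4 raised 3 of 9 tested rows (33.3%), beside 3.43% of all genes. BGP raised 0, beside 1.86% (0 also by DESeq2 and limma). At an unadjusted p below 0.05 in edgeR, 1 row passed with BGP, *Pfkp*, beside 13.4% of all genes. *Pfkl*, the liver-type phosphofructokinase of the committed step, was at 54.9, 58.7 and 66.9 CPM in Control, 59.2, 57.5 and 65.1 CPM with BGP and 68.7, 66.5 and 74.9 CPM with NaHPO4. NaHPO4 replicate 2 lay below Control replicate 3, so these groups overlapped. The log2FC of *Pfkl* was 0.21 ± 0.056 (FDR 0.012) with NaHPO4, 0.0073 ± 0.058 (FDR 0.97) with BGP and -0.21 ± 0.056 (FDR 0.02) for BGP versus NaHPO4. The NaHPO4 call on *Pfkl* was lost without Control replicate 1 (FDR 0.15), Control replicate 2 (FDR 0.055) or NaHPO4 replicate 3 (FDR 0.11). The call between the phosphates was lost without BGP replicate 1 (FDR 0.10), BGP replicate 2 (FDR 0.17) or NaHPO4 replicate 3 (FDR 0.17).

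*Aldoa*, aldolase A, which splits fructose-1,6-bisphosphate, was at 256, 289 and 294 CPM in Control, 284, 293 and 299 CPM with BGP and 302, 319.6 and 342 CPM with NaHPO4. The NaHPO4 libraries were above all others, with a log2FC of 0.20 ± 0.042 (FDR 0.0015). BGP did not pass against Control (0.063 ± 0.043, FDR 0.57). BGP versus NaHPO4 was close to the threshold (-0.14 ± 0.042, FDR 0.048) and did not pass with DESeq2 (FDR 0.06). This call was also lost without any 1 of the 3 BGP libraries (FDR 0.21, 0.13 and 0.059), NaHPO4 replicate 2 (FDR 0.11) or NaHPO4 replicate 3 (FDR 0.33). *Tpi1*, triose phosphate isomerase, was at 240.5, 249.9 and 262 CPM in Control, 239.9, 235 and 248 CPM with BGP and 280.2, 274 and 300.1 CPM with NaHPO4. Here too the NaHPO4 libraries stood above the rest, by 0.18 ± 0.037 on the log2 scale (FDR 9.0e-04) against Control. BGP was lower than NaHPO4 (log2FC -0.24 ± 0.037, FDR 3.2e-05) and did not differ detectably from Control (-0.057 ± 0.038, FDR 0.55).

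The remaining upper enzymes passed in no comparison. *Hk2* was at 22.2, 22.6 and 20.7 CPM in Control, 23.1, 22.5 and 23.6 CPM with BGP and 20.9, 22.6 and 22.5 CPM with NaHPO4, with groups that overlapped and log2FCs of 0.078 ± 0.069 and 0.011 ± 0.068 against Control. *Hk1*, *Gpi1*, *Pfkm* and *Pfkp* had log2FCs between -0.067 and 0.15 with BGP and between 0.045 and 0.14 with NaHPO4. *Pfkp*, the platelet-type phosphofructokinase, came nearest, with 0.15 ± 0.049 (FDR 0.12) for BGP and 0.14 ± 0.048 (FDR 0.077) for NaHPO4. The second *Aldoa* identifier overlaps *Aldoa* on the same strand, had 226 counts over 9 libraries and passed in no comparison.

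The lower steps, which return ATP, rose as a run with NaHPO4. Of 6 tested members 5 (83.3%) were higher, beside 3.43% of all genes, and the sixth, *Eno2*, was at 1.3 to 2.8 CPM. *Eno3*, an enolase outside the list, was at 38.7, 40.4 and 35.2 CPM in Control and 38, 40.2 and 40.4 CPM with NaHPO4, and did not pass (0.055 ± 0.056, FDR 0.66). With BGP 0 passed in edgeR, DESeq2 or limma, where edgeR called 1.86% of all genes higher and 0.665% lower. At an unadjusted p below 0.05 the count was also 0, beside 13.4% of all genes in edgeR. Their median log2FC was 0.28 with NaHPO4 and 0.011 with BGP. *Gapdh*, glyceraldehyde-3-phosphate dehydrogenase, was at 409, 423 and 463 CPM in Control, 431, 427 and 436 CPM with BGP and 478, 500.2 and 534 CPM with NaHPO4. All NaHPO4 libraries were above all others and BGP lay within the range of Control. The log2FC was 0.22 ± 0.039 with NaHPO4 (FDR 1.3e-04), -0.0016 ± 0.039 with BGP (FDR 0.99) and -0.22 ± 0.039 for BGP versus NaHPO4 (FDR 1.6e-04). *Gapdh* is often used as a reference gene, and its level here differed by 16.6% between Control and NaHPO4.

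*Pgk1* (ENSMUSG00000062070, chromosome X at 105230706 to 105247305, GRCm39, plus strand), phosphoglycerate kinase of the first ATP-producing step, moved most among the members that passed. It was at 37.4, 40.3 and 42.9 CPM in Control, 40.3, 41.3 and 40.3 CPM with BGP and 51.5, 52.4 and 57.5 CPM with NaHPO4. The lowest NaHPO4 library was well above the highest Control library. With NaHPO4 the log2FC was 0.42 ± 0.054 (FDR 7.6e-07), 33.5% higher, and with BGP it was 0.013 ± 0.057 (FDR 0.95). BGP versus NaHPO4 gave -0.40 ± 0.054 (FDR 2.4e-06).

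*Pgam1*, phosphoglycerate mutase, was at 35.9, 42.5 and 38.1 CPM in Control, 39.4, 41 and 40.4 CPM with BGP and 45.5, 46.8 and 49.4 CPM with NaHPO4. The NaHPO4 libraries were again the 3 highest, by 0.28 ± 0.056 over Control (FDR 7.1e-04). BGP was lower than NaHPO4 (-0.23 ± 0.056, FDR 0.0079), with an FDR of 0.051 without BGP replicate 1 and 0.065 without NaHPO4 replicate 3. *Eno1*, enolase, was at 108, 115 and 123 CPM in Control, 114, 117 and 126 CPM with BGP and 136, 139.8 and 159 CPM with NaHPO4. NaHPO4 replicate 3 was the highest, and no NaHPO4 library overlapped another group. *Eno1* rose by 0.32 ± 0.048 with NaHPO4 (FDR 9.6e-06) and not with BGP (0.046 ± 0.049, FDR 0.76), and BGP versus NaHPO4 gave -0.28 ± 0.048 (FDR 1.6e-04).

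*Pkm*, pyruvate kinase of the last step, was at 454, 462 and 485 CPM in Control, 460.2, 466 and 485 CPM with BGP and 536, 554 and 599.6 CPM with NaHPO4. BGP and Control had almost the same range, and NaHPO4 lay above both. The log2FC was 0.27 ± 0.036 with NaHPO4 (FDR 1.5e-06), 0.01 ± 0.037 with BGP (FDR 0.94) and -0.26 ± 0.036 for BGP versus NaHPO4 (FDR 5.0e-06). *Eno2*, the neuronal enolase, passed in no comparison.

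**Figure D3:**
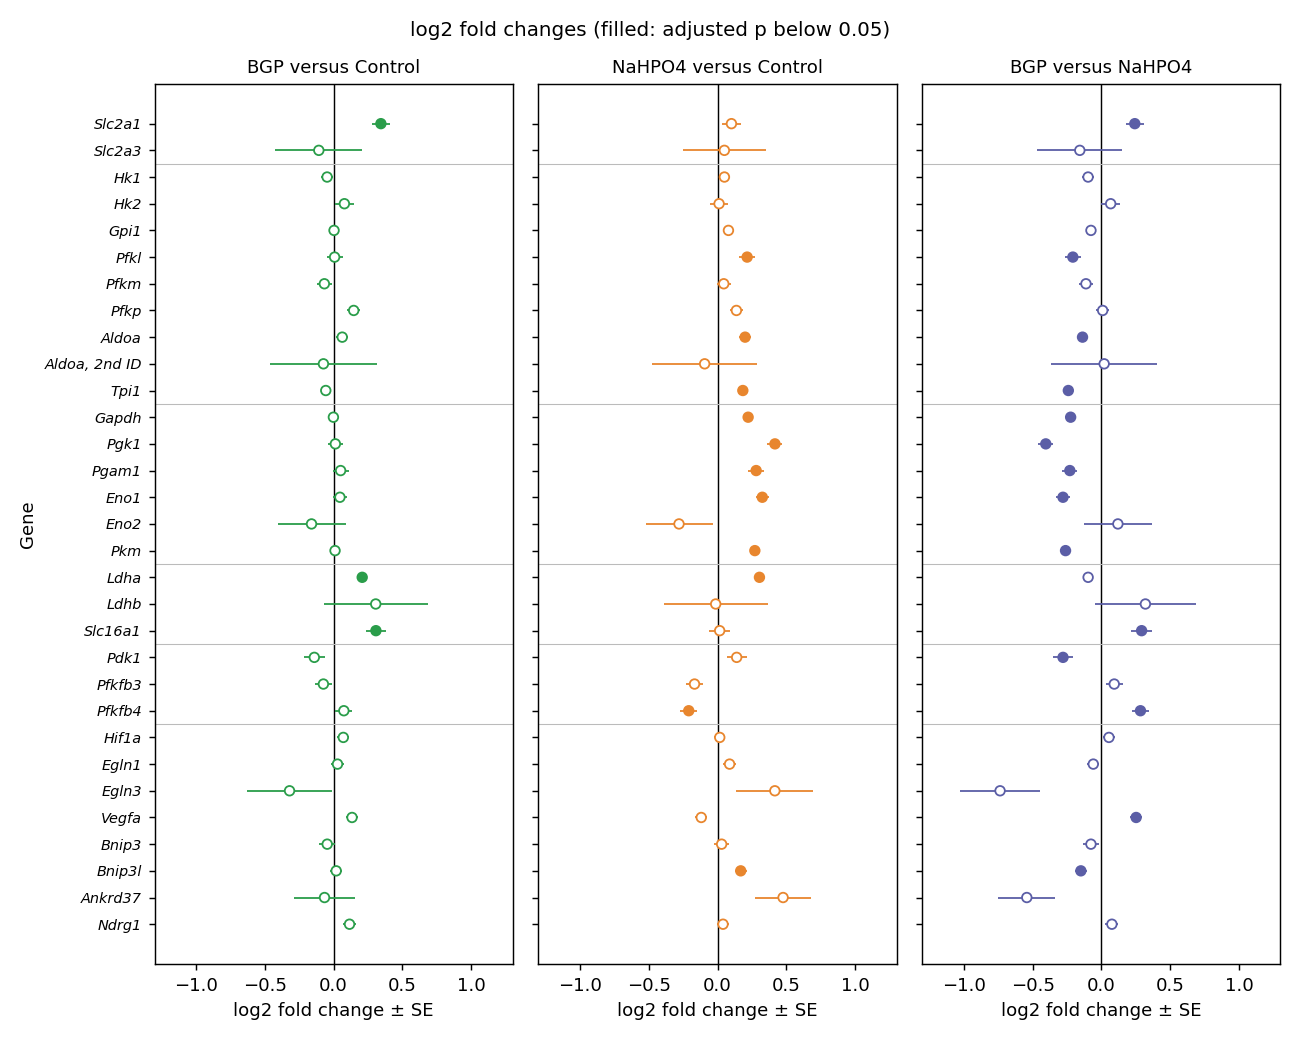
log2 fold changes (horizontal) with standard errors for the 31 tested rows (vertical) in the 3 comparisons, filled where the adjusted p was below 0.05. With NaHPO4 the filled points cluster in the lower glycolysis block between 0.22 for *Gapdh* and 0.42 for *Pgk1*, where with BGP 0 points are filled, and the wide bars belong to genes of about 1 to 4 CPM.

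These enzymes have processed pseudogenes and overlapping neighbours, so part of their reads can be assigned to other genes. Of the 50-base windows in annotated transcripts (GENCODE vM39 on GRCm39), those also found in transcripts of another gene made up 51.8% for *Pgk1*, 29.3% for *Pgam1*, 28.8% for *Aldoa*, 21.2% for *Pkm*, 16.1% for *Gapdh* and 10.8% for *Eno1*. Counts recorded for the pseudogenes of these 6 enzymes were few, at most 1.87% of the member's own counts, for *Gapdh* with 110 pseudogenes. Adding the counts of pseudogenes and of same-strand neighbours such as *Gm49759* in *Pkm* kept all 28 calls. Such an addition cannot recover reads that were assigned to no gene, and their part in the calls was not tested. How strand was used in counting is not given in the sources used here. Of the members that passed against Control, 5 share exons with a gene on the opposite strand: *Cfap410* for *Pfkl* (log2FC -0.036 with NaHPO4, FDR 0.8), *Spsb2* for *Tpi1* (0.031, FDR 0.89), *Iffo1* for *Gapdh* (-0.17, FDR 0.07), *Tlcd3b* for *Aldoa* (25 counts over the 9 libraries) and *Gm12868* for *Slc2a1* (0 counts). The first 3 of these did not pass with NaHPO4. Members that did not pass also have such neighbours, among them *Pitrm1* for *Pfkp* (12784 counts), *Ufsp2* for *Ankrd37* (10265 counts) and *Senp1* for *Pfkm* (8500 counts). The largest was *Csnk1d* (40088 counts) for *Slc16a3*, which was not tested.

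At the lactate step, *Ldha* rose with both phosphates. *Ldha* (ENSMUSG00000063229, chromosome 7 at 46490899 to 46505061, GRCm39, plus strand), the lactate dehydrogenase form that favours lactate production, was at 408, 423 and 441 CPM in Control. With BGP it was at 488, 489.9 and 491 CPM and with NaHPO4 at 492, 522 and 558 CPM. The groups did not overlap in any pair, and the BGP libraries differed among themselves by less than 1%. The log2FC was 0.21 ± 0.037 with BGP (FDR 4.0e-04) and 0.30 ± 0.037 with NaHPO4 (FDR 1.9e-07). Between the phosphates it was -0.10 ± 0.037 (FDR 0.13), which did not pass, but did without NaHPO4 replicate 1 (log2FC -0.14, FDR 0.014) and with scaling to total counts (log2FC -0.12, FDR 0.036). *Ldhb*, the form typical of heart, was at 0.473 to 1.21 CPM, and its pseudogene had 51.2% as many counts, so its values are uncertain.

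Of the lactate transporters, *Slc16a1* rose with BGP and was higher than with NaHPO4. *Slc16a1* (ENSMUSG00000032902, chromosome 3 at 104545811 to 104565780, GRCm39, plus strand) encodes the monocarboxylate transporter MCT1. It was at 18.4, 17.8 and 16.3 CPM in Control, 22.7, 20.4 and 21.6 CPM with BGP and 17.4, 17.7 and 17.8 CPM with NaHPO4. The BGP libraries were above all others, and NaHPO4 lay within the Control range. BGP gave a log2FC of 0.31 ± 0.075 against Control (FDR 0.017) and 0.29 ± 0.074 against NaHPO4 (FDR 0.011). With NaHPO4 it was 0.015 ± 0.075 (FDR 0.94). The call against Control was lost without Control replicate 3 (FDR 0.12), BGP replicate 1 (FDR 0.13) or BGP replicate 3 (FDR 0.054), and that against NaHPO4 without BGP replicate 1 (FDR 0.093). *Slc16a3*, the hypoxia-induced exporter MCT4, had 0 counts in all 9 libraries, which at a floor of 3 counts allows up to 0.106 to 0.14 CPM. That limit holds only if its reads were counted. Its exons overlap *Csnk1d* (40088 counts) and *Ccdc57* (1541 counts) on the opposite strand. A loss in counting there cannot be told apart from absence of the transcript.

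**Figure D4:**
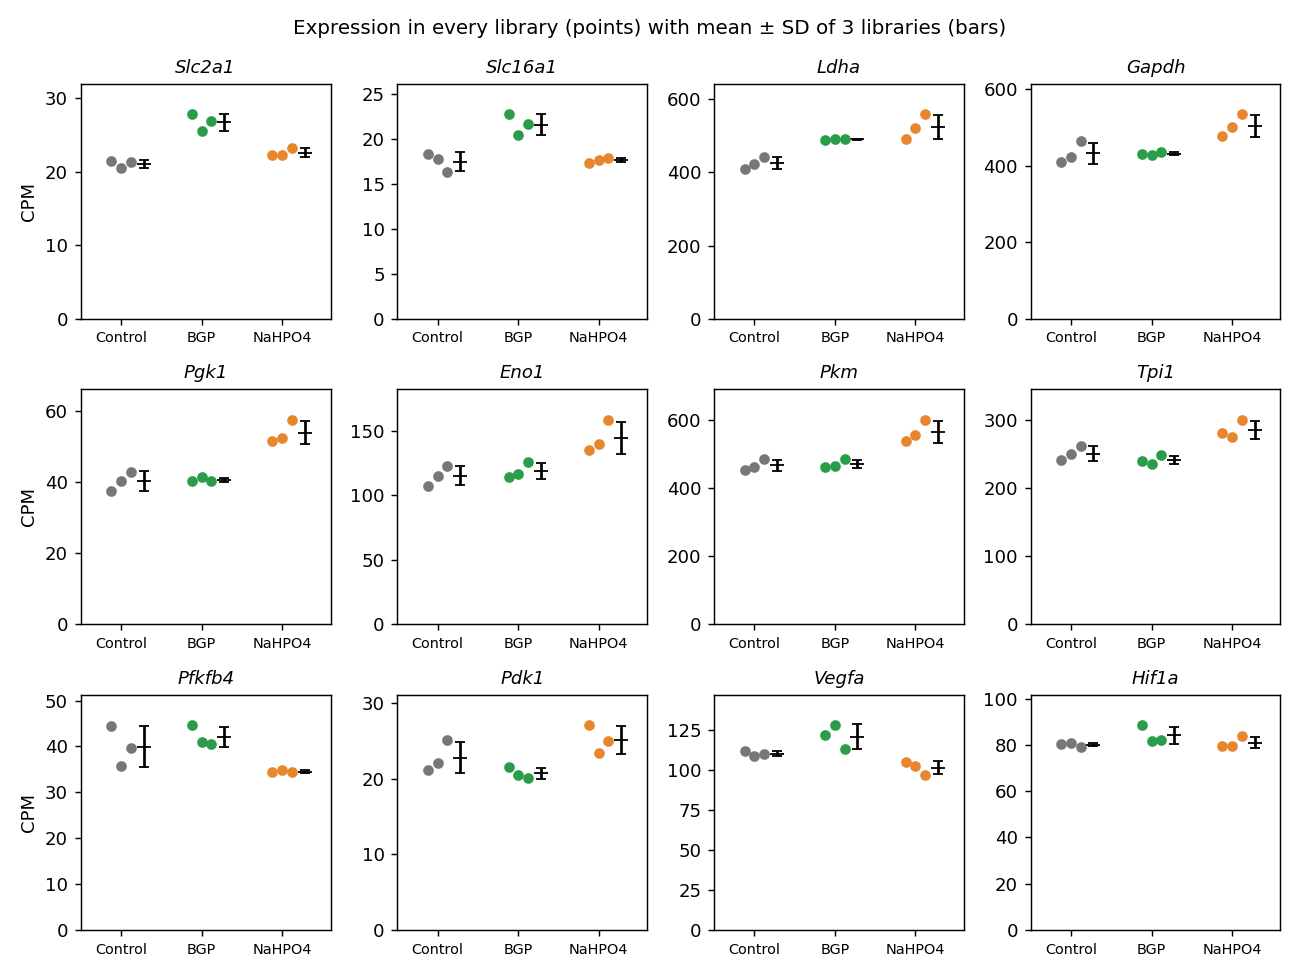
CPM in every library (points) with mean ± SD of 3 libraries (black bars, vertical axes starting at 0) for 12 members in Control, BGP and NaHPO4 (horizontal). *Slc2a1* and *Slc16a1* are highest with BGP, *Gapdh* to *Tpi1* with NaHPO4, *Ldha* steps up with both, and *Vegfa* is highest with BGP and lowest with NaHPO4.

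The flux regulators did not move as a group. *Pdk1*, a kinase that shuts the pyruvate dehydrogenase complex, was at 21.1, 22.1 and 25 CPM in Control, 21.5, 20.5 and 20.1 CPM with BGP and 27, 23.3 and 25 CPM with NaHPO4. Neither phosphate passed against Control (-0.14 ± 0.075 with BGP, FDR 0.43, and 0.14 ± 0.072 with NaHPO4, FDR 0.28), but the estimates had opposite signs. BGP was lower than NaHPO4 (log2FC -0.28 ± 0.073, FDR 0.015), without overlap, and this call was lost without BGP replicate 2 (FDR 0.069), BGP replicate 3 (FDR 0.074) or NaHPO4 replicate 1 (FDR 0.10). *Pfkfb4*, which makes and removes fructose-2,6-bisphosphate, the activator of phosphofructokinase, was at 44.5, 35.8 and 39.6 CPM in Control. It was at 44.6, 41.1 and 40.5 CPM with BGP and 34.3, 34.9 and 34.4 CPM with NaHPO4. The 3 NaHPO4 libraries were nearly equal and below all others, while Control spread widely.

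*Pfkfb4* fell with NaHPO4 (log2FC -0.21 ± 0.061, FDR 0.028), and BGP exceeded NaHPO4 by 0.28 ± 0.061 (FDR 0.0026). The fall against Control did not pass with DESeq2 (FDR 0.067) or scaling to total counts (FDR 0.056). It was also lost without Control replicate 1 (FDR 0.32), Control replicate 3 (FDR 0.059) or any 1 of the NaHPO4 libraries (FDR 0.07, 0.063 and 0.075). *Pfkfb3*, the isoform with the strongest kinase activity, was at 29.4, 30 and 28.8 CPM in Control, 29.1, 26.1 and 28.6 CPM with BGP and 27.1, 26.1 and 25.3 CPM with NaHPO4. Its NaHPO4 libraries lay below Control without overlap, but the log2FC of -0.17 ± 0.062 had an FDR of 0.099 and did not pass.

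Among the hypoxia genes, 1 of 8 tested members (12.5%) rose with NaHPO4, beside 3.43% of all genes. With BGP 0 rose, beside 1.86% (0 also by DESeq2 and limma). At an unadjusted p below 0.05 in edgeR, 2 passed with BGP, *Vegfa* and *Ndrg1*, beside 13.4% of all genes. Counts this small are not a result about the group. *Hif1a*, whose protein is controlled mainly by degradation, was at 80.2, 80.8 and 79.3 CPM in Control, 88.5, 81.8 and 82 CPM with BGP and 79.7, 79.6 and 83.6 CPM with NaHPO4. Its log2FC was 0.07 ± 0.042 with BGP (FDR 0.5) and 0.016 ± 0.042 with NaHPO4 (FDR 0.89). *Bnip3l*, a mitophagy receptor, was at 75.2, 72.1 and 72.3 CPM in Control, 72.4, 75.6 and 74.3 CPM with BGP and 85.6, 78.9 and 82.2 CPM with NaHPO4. It rose with NaHPO4 by 0.17 ± 0.042 (FDR 0.0083, and 0.057 without NaHPO4 replicate 1), with no overlap. BGP versus NaHPO4 gave -0.15 ± 0.042 (FDR 0.027), a call lost without any 1 of the BGP libraries (FDR 0.14, 0.054 and 0.073), NaHPO4 replicate 1 (FDR 0.13) or NaHPO4 replicate 3 (FDR 0.071).

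*Vegfa* (ENSMUSG00000023951, chromosome 17 at 46327919 to 46343309, GRCm39, minus strand), the angiogenic growth factor, was higher with BGP than with NaHPO4. *Slc2a1*, *Slc16a1* and *Pfkfb4* were called with the same sign, and the 8 called enzymes from *Pfkl* to *Pkm* with the opposite one. *Vegfa* was at 112, 109 and 110.2 CPM in Control, 122, 128 and 113 CPM with BGP and 105, 103 and 97 CPM with NaHPO4. The groups were ordered NaHPO4, Control and BGP, with no overlap between any pair. Against Control the log2FCs of 0.13 ± 0.042 with BGP (FDR 0.088) and -0.12 ± 0.042 with NaHPO4 (FDR 0.085) did not pass, although BGP did without BGP replicate 3 (log2FC 0.18, FDR 0.017). BGP versus NaHPO4 passed at 0.25 ± 0.042 (FDR 8.7e-05).

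The other hypoxia members passed in no comparison. *Egln1* was at 59.2 to 66.5 CPM, *Bnip3* at 32.5 to 37.1 CPM and *Ndrg1*, a stress-induced gene, at 63.1 to 72.4 CPM over the 9 libraries. *Egln3* (0.722 to 2.62 CPM) and *Ankrd37* (2.00 to 4.18 CPM), HIF targets with low basal expression, had wide errors. *Ankrd37* had log2FCs of 0.48 ± 0.21 with NaHPO4 (FDR 0.18) and -0.066 ± 0.22 with BGP, and its Control replicate 3 stood apart at 4.13 CPM from 2.10 and 2.00 CPM in the others. *Car9*, carbonic anhydrase IX, had 0, 1 and 7 counts in Control, 0, 0 and 0 with BGP and 2, 2 and 4 with NaHPO4. *Adm*, adrenomedullin, had 0, 0 and 6 counts in Control, 0, 0 and 1 with BGP and 1, 0 and 4 with NaHPO4, while for *Aldoc*, the brain aldolase, there were 0, 2 and 1 counts in Control, 0, 1 and 0 with BGP and 3, 2 and 8 with NaHPO4. In all, 15 of the 31 tested rows passed in at least 1 comparison and 16 in none.

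The neighbouring pathways held 0 or 1 call per list and comparison in edgeR, which beside the shares of all genes given above (0.665% to 3.95%) is not a result about these lists. Of 36 other genes of glycolysis and hexose use, such as *Hk3*, *Bpgm* and *Pfkfb2*, 24 were tested, and 0 passed in any comparison by edgeR, with 4, 2 and 3 at an unadjusted p below 0.05 for BGP, NaHPO4 and BGP versus NaHPO4. DESeq2 called 1 of them lower with BGP, and limma 0. Of 13 genes of pyruvate entry and pyruvate dehydrogenase, *Pdp1*, the phosphatase that opposes the PDK kinases, rose with NaHPO4 from 90.4 ± 1.9 to 101 ± 3.06 CPM (log2FC 0.15 ± 0.039, FDR 0.0098). Of 9 pentose phosphate genes, *G6pdx*, which encodes the entry enzyme of that pathway, rose with NaHPO4 from 70.2 ± 3.52 to 78.6 ± 3.19 CPM (log2FC 0.16 ± 0.048, FDR 0.029), while DESeq2 called 0. BGP is a glycerol phosphate. A list of 15 genes held enzymes of glycerol and glycerol phosphate metabolism, glycerol channels and sugar phosphate exchangers. Of these, 11 were tested and 0 passed with BGP in edgeR, DESeq2 or limma (1 at an unadjusted p below 0.05). Whether any of them acts on BGP itself was not tested. With NaHPO4, *Slc37a3*, a member of the sugar phosphate exchanger family, fell from 371 ± 4.79 to 339 ± 5.4 CPM (log2FC -0.13 ± 0.033, FDR 0.012).

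Genes of oxygen sensing were not called, and among other HIF targets calls with NaHPO4 were mostly higher. Of 17 genes such as *Epas1*, *Arnt* and *Vhl*, 16 were tested and 0 passed in any comparison by edgeR, DESeq2 or limma. At an unadjusted p below 0.05 in edgeR, 1, 1 and 0 passed, beside 13.4%, 19.9% and 16.9% of all genes. Of 46 further HIF targets, 37 were tested. With NaHPO4, 5 (13.5%) were higher, beside 3.43% of all genes, and 1 (2.7%) was lower, beside 3.95%. At an unadjusted p below 0.05 in edgeR, 12 were higher and 7 lower with NaHPO4, where 19.9% of all genes passed in either direction. This list too was chosen with earlier results of these data known. With BGP 1 was higher and 1 lower (2.7% each, beside 1.86% and 0.665%), and for BGP versus NaHPO4 4 (10.8%) were higher, beside 3.33%, and 5 (13.5%) lower, beside 2.05%. For BGP versus NaHPO4, DESeq2 called 1 higher and 3 lower of 35 genes, and limma 4 and 5 of 37. With NaHPO4 versus Control, DESeq2 called 5 higher and 1 lower, and limma 6 and 1. Their median log2FC was 0.068 with NaHPO4 and 0.0026 with BGP. *Bhlhe40*, a transcriptional repressor that is also a clock gene, rose with both, from 57.1 ± 3.38 CPM to 79.8 ± 2.24 with BGP (log2FC 0.48 ± 0.046, FDR 1.6e-09) and 69 ± 2.05 with NaHPO4 (0.27 ± 0.046, FDR 9.2e-05). *Tfrc*, the transferrin receptor, rose with NaHPO4 (0.31 ± 0.086, FDR 0.019), as did *Mif*, a cytokine (0.22 ± 0.055, FDR 0.0083), *Narf* (0.20 ± 0.057, FDR 0.022) and *P4ha1*, a collagen prolyl hydroxylase subunit (0.19 ± 0.039, FDR 0.0012). *Ddit4*, an inhibitor of mTORC1 signalling, was the target called lower with each phosphate, from 264 ± 9.41 CPM to 241 ± 10.7 with BGP (-0.13 ± 0.037, FDR 0.045) and 240.1 ± 7.62 with NaHPO4 (-0.14 ± 0.037, FDR 0.013). *Mif* (-0.28 ± 0.055, FDR 9.9e-04) and *Narf* (-0.27 ± 0.058, FDR 0.0021) were lower with BGP than with NaHPO4. *Bhlhe41*, a relative of *Bhlhe40*, was higher with BGP than with NaHPO4 (0.25 ± 0.073, FDR 0.031) and did not pass against Control.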

How the data were processed

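The 9 RNA sequencing libraries of MC3T3-E1 cells were grouped by the treatment in the labels. The authors mapped paired reads from a stranded poly(A) kit to GRCm39 (Ensembl release 104) with the AIR software. The aligner and the counting program are not given in the sources used here. The deposited counts are whole reads per gene with no normalization. The deposited TMM table is a signal, the counts times a single factor per library, and was used for the limma alternative only (log2 of the value + 1).

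Counts were filtered with filterByExpr (edgeR 4.0.16, minimum count 10), scaled by TMM and fitted over all 9 libraries with glmQLFit, with a coefficient per condition. The 3 comparisons were tested with glmQLFTest and adjusted by Benjamini-Hochberg over 13679 genes. The fit was tested on simulated data. Libraries of a condition differed by more than sampling noise (chi-square per degree of freedom 2.65 to 4.89). At these depths 10 counts are below 1 CPM. The SE of a log2FC comes from the F statistic. R 4.3.3, limma 3.58.1, DESeq2 1.42.0 and Python 3.11.15 ran the analysis.

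The members and lists were chosen with earlier results of these data known. Values in every library are given for members that passed in any comparison and for *Slc2a1*, *Hk2*, *Pfkfb3*, *Ldha*, *Pdk1*, *Hif1a* and *Vegfa*. From each further list, up to 6 genes that passed, with the largest absolute log2FC, are named. *Ankrd37*, *Pfkp*, *Eno3*, *Hk3*, *Ddit4*, *P4ha1*, the single cell type markers and the overlapping genes are outside this rule and were chosen after their values were seen. Promoter windows are from RefSeq (GRCm38.p6, another build than the counts) and matched 31 of 34 symbols. Alternatives were other tests, scalings, filters, prior counts and thresholds, a replicate block, and leaving out each library. The pseudogene counts, the limit of 20 CPM and the canonical length were added after seeing the data. The values of 1 gene counted among the further HIF targets are not reported here.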

Additional observations from a re-analysis of the deposited data

How the results depend on the processing

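The 28 calls on members were recomputed under 21 alternatives. No call changed direction, 542 of 588 recomputed values stayed past the threshold and 46 did not. A total of 17 calls held throughout, among them *Gapdh*, *Pgk1*, *Eno1*, *Pkm* and *Tpi1* with NaHPO4 and against BGP, *Ldha* with both phosphates and *Slc2a1* with BGP. The 26 values of named members that were not called gave 546 recomputed values, of which 3 passed (1 for *Vegfa* and 2 for *Ldha*, given above) and 17, on 9 of the 26, changed sign without passing. The count of members lower with NaHPO4, 1 (*Pfkfb4*), was 0 with DESeq2, with scaling to total counts and at an FDR of 0.01. At an FDR of 0.01, the counts for BGP versus NaHPO4 were 2 higher and 6 lower, instead of 4 and 10. Leaving out 1 library at a time gave 2 to 3 members higher with BGP, 9 to 11 higher and 0 to 1 lower with NaHPO4, 2 to 4 higher and 6 to 10 lower for BGP versus NaHPO4, and 0 to 1 DEGs with NaHPO4. The count of 6 lower came without BGP replicate 1, BGP replicate 2 or NaHPO4 replicate 3, and the count of 2 higher without BGP replicate 1. Scaling to total counts moved the median log2FC of all genes to 0.025 with NaHPO4 and -0.029 for BGP versus NaHPO4. Over all 13679 genes tested, same-numbered libraries did not deviate together (correlations -0.0092 to 0.043). The summed glycolysis enzymes did rank alike by library number, as given below. With the replicate block all 28 calls held. Members under about 4 CPM had SEs of 0.21 to 0.39 on the log2 scale, so changes of the size seen in the enzymes were not detectable in them.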

Other observations

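The summed expression of the glycolysis enzymes ranked alike by library number in each condition: the library numbered 1 was lowest and the library numbered 3 highest in Control, with BGP and with NaHPO4. NaHPO4 exceeded the same-numbered Control library by 311, 303 and 363 CPM, and BGP differed from it by 62.6, 5.43 and -27.1 CPM. The labels do not say that a number marks a shared plate or day.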
